A study of Medicago truncatula and Hordeum vulgare with 90 samples.

Results

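The loss of NSP2 was examined in roots that lacked no nutrient. RNA from 3 libraries of nsp2 roots was compared with RNA from 3 libraries of A17 roots, 6 of the 90 libraries of the series, and both groups were chosen by genotype and nutrient supply alone. The nsp2 plants carried the nsp2-2 mutation and A17 is the wild-type line of M. truncatula, a nodulating legume. All seedlings had nitrate and phosphate both supplied (+P+N) during 15 days on plates with modified BNM medium, and whole roots were sequenced. The other libraries of seedling roots came from A17, nsp1-1 (nsp1) and nsp2 under this regime and without nitrate (+P-N), without phosphate (-P+N) or without both (-P-N), with 3 libraries in each of the 12 combinations. Hairy roots, transgenic roots induced on A17 plants and labelled as 21 days old with both nutrients supplied, carried an empty vector (EV), NSP2 (NSP2ox), NSP2 resistant to its microRNA (miRR-NSP2ox) or NSP1 (NSP1ox), with 3 libraries each. Per the methods, they grew in sand for 3 weeks after selection, at a lower phosphate concentration than the +P+N seedlings. Both forms of NSP2 were driven by a BdEF1a promoter and NSP1 by another, LjUBI. Nothing in the labels says whether the replicates were separate plantings, so p-values measure the spread between these libraries. Whole roots hold many cell types, and fewer cells of a type cannot be told apart from less RNA per cell.

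NSP1 and NSP2 are GRAS-domain transcriptional regulators that are needed for root nodules to form, and they also act on the genes of strigolactone synthesis. Strigolactones are apocarotenoids, signals cut from carotenoids, that roots release to attract arbuscular mycorrhizal fungi. Roots are known to make more of them when phosphate or nitrate is short.

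Counts per library were 18908271 to 22822530 in nsp2 and 17690329 to 20087442 in A17. The 50 most abundant genes took 11.5% to 12.1% of the counts in nsp2, against 10.9% to 11.4% in A17. Replicates differed by more than sampling noise, and the A17 libraries numbered 1 and 3 lay nearer to each other (chi-square per gene 2.04) than either lay to the A17 library numbered 2 (6.31 and 7.46). The counts of NSP2 and NSP1 themselves were not analysed here, because the table names genes by identifier and no source used here pairs an identifier with either.

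At full nutrition 1113 of the 24630 genes tested differed between nsp2 and A17 (4.52%). Of these, 469 were higher in nsp2 (1.9% of the genes tested) and 644 were lower (2.61%), by the quasi-likelihood test of edgeR at a Benjamini-Hochberg adjusted p under 0.05. The median log2 fold change of nsp2 over A17 was 0.48 among the higher genes and -0.75 among the lower ones, and 194 higher and 393 lower genes passed a fold change of 1.5. A small group was very large, with 56 higher and 80 lower genes past 8-fold. The libraries of the groups did not overlap for 469 of the 469 higher genes and 643 of the 644 lower genes, while 25.7% of all genes tested had groups that did not overlap. Single libraries moved these counts. They were 186 higher and 270 lower without A17 replicate 1, 166 and 264 without A17 replicate 3, and 223 and 336 without nsp2 replicate 1. Without A17 replicate 2 they rose to 688 higher and 953 lower. With each library left out in turn, 150 higher and 232 lower genes were called every time.

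The called genes were not spread evenly over the genome. M. truncatula identifiers carry the chromosome and a running number, and the tested genes of each chromosome were taken in table order in windows of about 100. In 229 windows the count of called genes lay between 0 and 10, with a median of 3. The other 12 windows formed an unbroken run on each of chromosomes 6 and 7. These runs were delimited after the values were seen, as adjoining windows with more than 10 called genes each, so that their higher share is a description and not a test. On chromosome 6 the run spanned 8 windows, between Medtr6g011500 and Medtr6g068860, and 187 of its 800 tested genes were called (23.4%), with 71 higher and 116 lower in nsp2. Its windows held 32, 36, 21, 18, 31, 20, 17 and 12 called genes, and the windows just outside it held 7 and 2. On chromosome 7 the run spanned 4 windows, between Medtr7g050445 and Medtr7g069390, and 89 of 400 genes were called (22.2%), with 46 higher and 43 lower. Its windows held 19, 25, 25 and 20 called genes, and the windows on either side held 1 each. Over the rest of the genome 837 of 23430 genes were called (3.57%). These include 558 genes on scaffolds without a chromosome, which lie in no window and of which 47 were called (8.42%), 7 of them past 8-fold.

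**Figure D1:**
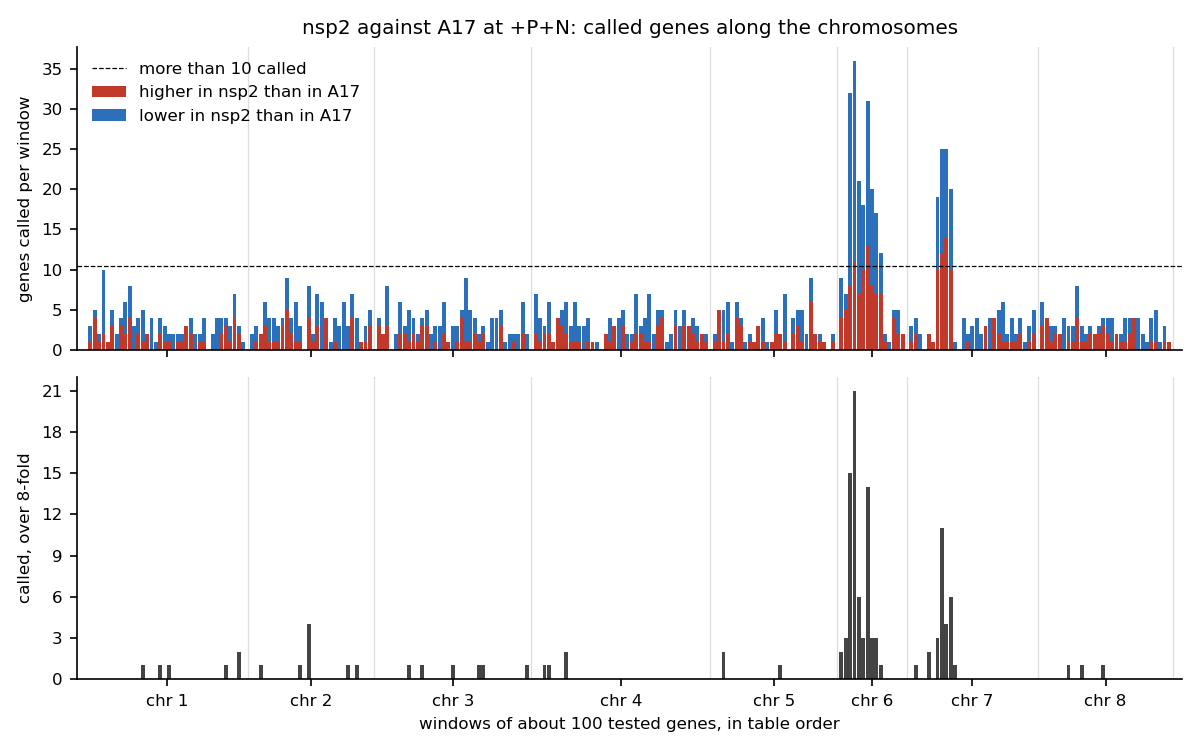
Genes called between nsp2 and A17 at +P+N, per window of about 100 tested genes along the 8 chromosomes (x axis). The upper panel stacks genes higher in nsp2 (red) and lower in nsp2 (blue), with the limit of 10 dashed, and the lower panel counts those past 8-fold. Windows reach 36 called genes on chromosome 6 and 25 on chromosome 7, and at most 10 elsewhere.

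The changes within these runs were also larger than those elsewhere. The median size of a called log2 fold change was 1.49 in the chromosome 6 run and 1.49 in the chromosome 7 run, against 0.52 elsewhere. Called genes past 8-fold numbered 66 in the chromosome 6 run, 24 in the chromosome 7 run and 46 in all other places. Both directions occurred side by side, so the runs were not regions of uniformly lost or gained expression. In the chromosome 6 run the median log2 fold change was 1.58 among the higher genes and -1.49 among the lower ones, and in the chromosome 7 run it was 1.41 and -1.52. These medians did not move when genes without a count in one group were set to their lower bound.

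The nsp2 and A17 libraries of the starvation regimes had no part in choosing the runs, and they showed the same places. Without both nutrients, 204 of 800 genes in the chromosome 6 run (25.5%) and 102 of 400 in the chromosome 7 run (25.5%) differed between nsp2 and A17, against 4.56% elsewhere. At +P-N the shares were 33.8% and 32.2%, against 10.3% elsewhere, and at -P+N they were 40% and 41.2%, against 27.2% elsewhere. Over all genes tested, 11.4% differed between nsp2 and A17 at +P-N, 27.8% at -P+N and 5.58% under -P-N. Changes past 8-fold numbered 61 to 71 in the chromosome 6 run (7.62% to 8.88%) in the starvation regimes. In the chromosome 7 run they numbered 28 to 30 (7% to 7.5%), against 0.158% to 0.307% of the genes elsewhere. Directions recurred too. Over all genes tested, 6.31% were lower in nsp2 than in A17 at +P-N, 15.1% at -P+N and 2.98% under -P-N, and 5.12%, 12.8% and 2.59% were higher. Of the 116 genes lower in nsp2 in the chromosome 6 run at +P+N, 95 were lower at +P-N, 86 at -P+N and 75 under -P-N, while 1, 3 and 0 were higher. Of the 71 higher ones, 52, 55 and 48 were higher in those regimes and 1, 5 and 2 were lower.

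In nsp1 the runs had call rates near to or below those of the rest of the genome in the regimes without nitrate or phosphate, apart from chromosome 7 at -P-N. Between nsp1 and A17 the call rate at -P-N was 2.75% in the chromosome 6 run and 4.5% in the chromosome 7 run, against 2.35% elsewhere, and at +P-N it was 4.75% in both runs, against 4.43% elsewhere. At -P+N, where 32.6% of all genes differed between nsp1 and A17, the shares in the runs were 27.3% and 28.7%. Of the genes in the chromosome 6 run, 1 to 4 (0.125% to 0.5%) passed 8-fold between nsp1 and A17 in the starvation regimes. In the chromosome 7 run 1 to 3 (0.25% to 0.75%) did, against 0.23% to 0.431% of the genes elsewhere. Over all genes tested, nsp1 differed from A17 in 4.45% at +P-N and in 2.4% under -P-N. At +P+N, where nsp1 was set against the same A17 libraries as nsp2, the shares were 6.88% and 8.25%, against 6.3% elsewhere. Set directly against nsp1 at -P-N, nsp2 differed in 21.2% of the genes of the chromosome 6 run and 20.5% of those of the chromosome 7 run, against 3.32% elsewhere and 4.18% of all genes tested.

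**Figure D2:**
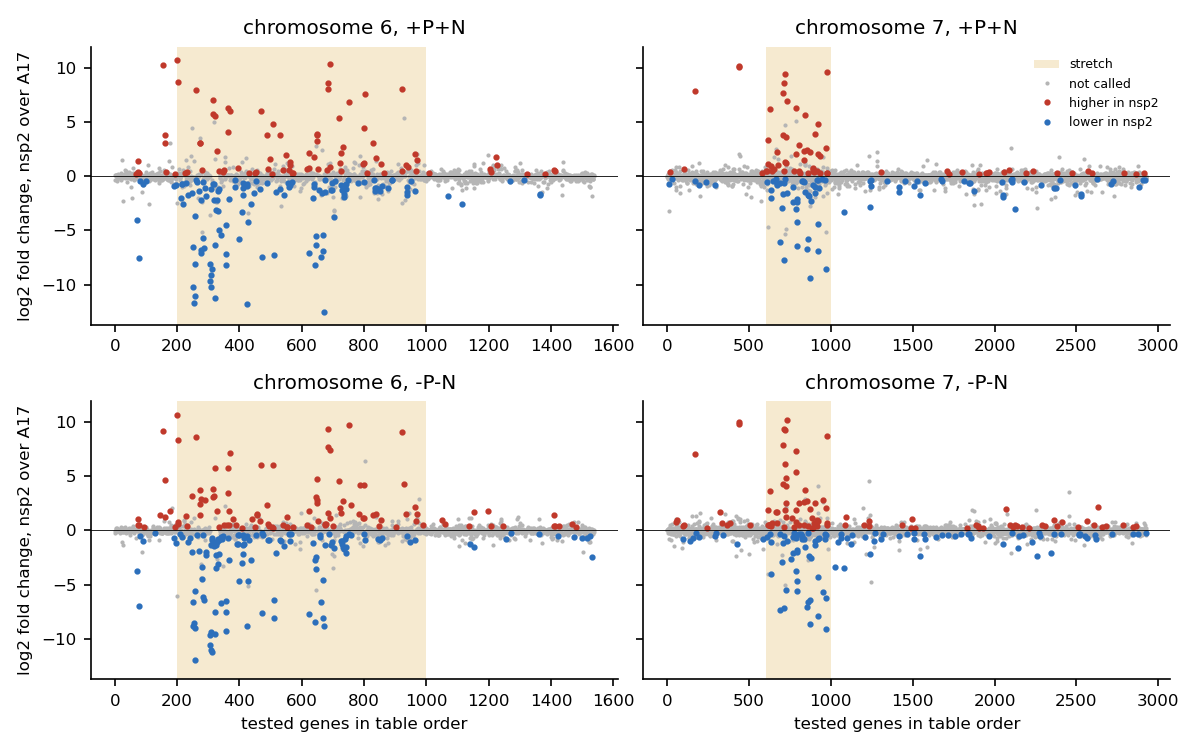
Fitted log2 fold change of nsp2 over A17 (y axis) for each tested gene of chromosomes 6 and 7 in table order (x axis), at +P+N (top) and in separate libraries at -P-N (bottom), with the runs shaded. Called genes are red where higher in nsp2 and blue where lower, and values past about 8 on either side belong to genes with few or no counts in one group. Changes of both signs cluster in the shaded runs under both regimes.

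The far end of this range consisted of genes that had counts in one genotype and almost none in the other. At or under 3 counts in each of the 3 nsp2 libraries, and at a mean of at least 1 CPM (counts scaled to a common library size) in A17, were 34 genes. The reverse, at or under 3 counts in each A17 library and at least 1 CPM in nsp2, held for 31 genes. As counts in these libraries chose the 65 genes, their calls follow from that choice. Their summed counts in the group that expressed them ran from 69 to 1710 in nsp2 (median 200) and from 61 to 11107 in A17 (median 283.5). For the 14 genes without any count in nsp2 the difference was at least 22.7-fold to at least 786-fold, and for the 18 without any count in A17 it was at least 22.4-fold to at least 206-fold, each set against 3 counts over the group. Of the 34 genes lacking in nsp2, 20 lay in the chromosome 6 run and 4 in the chromosome 7 run, and of the 31 lacking in A17, 13 and 7 did. The runs held 800 and 400 of the 24630 genes tested. All 65 genes were called, and those placed on chromosomes counted towards the windows that delimit the runs. Their places are thus not independent of how the runs were chosen.

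The identifiers in the table are not paired with gene names, so that few of them are printed. Medtr3g118190, the most abundant of these genes in A17, had 0, 1 and 0 counts in the nsp2 libraries, against 3510, 3688 and 3909 in the A17 libraries. Its level was thus 0 to 0.0478 CPM in nsp2 and 207 to 219 CPM in A17, with a ratio of 12400 (95% counting interval 2220 to 489000). Its identifier lies outside the runs. Medtr6g034705, in the chromosome 6 run, had no count in any nsp2 library, against 678, 714 and 724 in A17, at least 786-fold lower. In the other direction, Medtr3g448460 had 234, 238 and 216 counts in nsp2 and none in A17, at least 206-fold higher. Medtr6g011500, the first gene of the chromosome 6 run, had 227, 251 and 202 counts in nsp2 and none in A17, at least 203-fold higher. The adjusted p for Medtr3g118190 was 2.2e-12 in edgeR's test, and it was 5.9e-09 for Medtr6g034705, 3.0e-07 for Medtr3g448460 and 2.9e-07 for Medtr6g011500.

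Most of these genes kept their state whatever the nutrient supply. Of the 34 genes lacking in nsp2, 27 were at or under 3 counts in all 9 nsp2 libraries of the starvation regimes, and of the 31 lacking in A17, 23 were so in all 9 A17 libraries. No library of one genotype reached a library of the other in the starvation regimes for 30 of the 34 and 25 of the 31. Medtr3g118190 summed to 6 counts in nsp2 and 9552 in A17 at +P-N, 3 and 10258 at -P+N, and 5 and 9916 under -P-N. The nsp1 mutant resembled A17. It separated fully from nsp2, on the side of A17, for 29 of the 34 genes and 24 of the 31. Empty-vector hairy roots, another growth system, had more than 3 counts in sum for 32 of the 34 genes lacking in nsp2 and for 8 of the 31 lacking in A17. The matching shares over all genes tested were not counted, so that the counts of this paragraph describe these genes only.

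**Figure D3:**
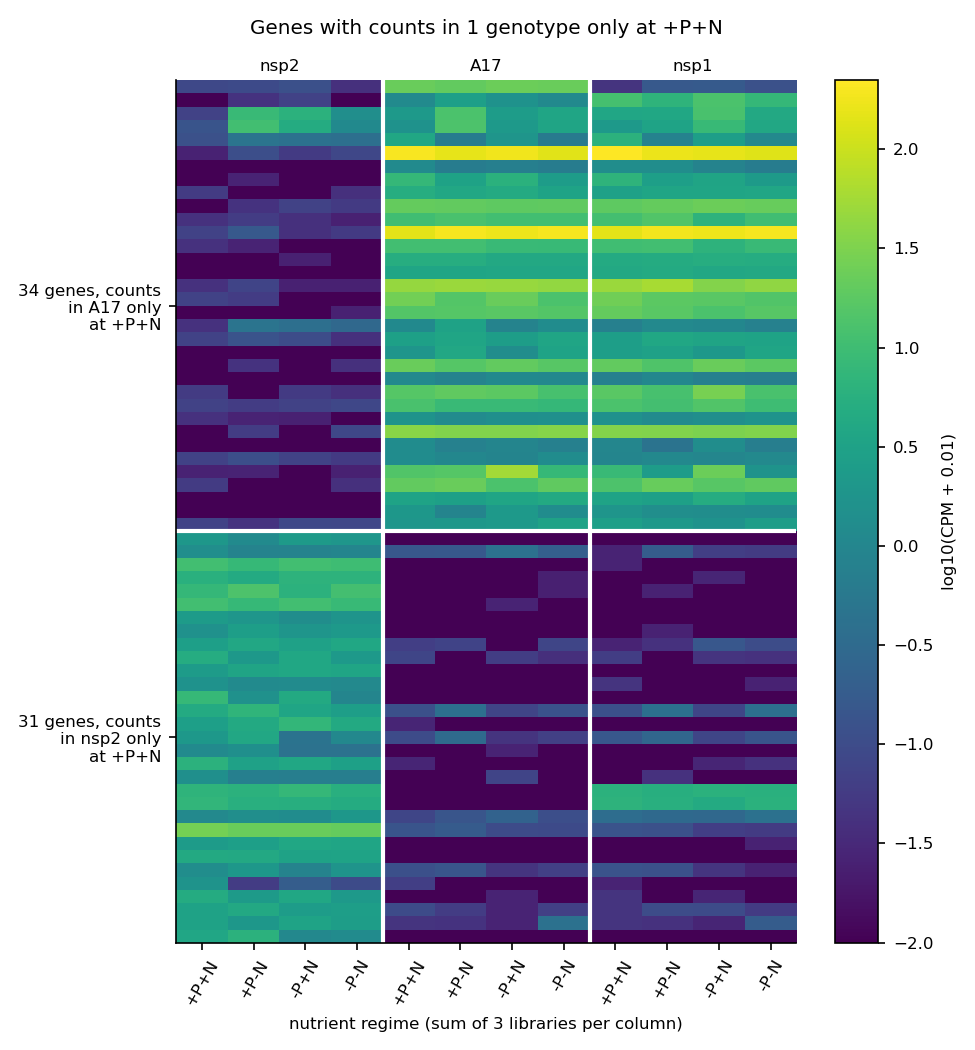
Levels of the 65 genes (rows) with counts in one genotype and almost none in the other at +P+N, as log10 of the CPM of 3 summed libraries plus 0.01, in nsp2, A17 and nsp1 (column blocks, left to right) under each nutrient regime. The 34 genes lacking in nsp2 are above the white line and the 31 lacking in A17 below it. Most rows stay dark or bright within a genotype across all 4 regimes, and the nsp1 block mirrors that of A17 in all but a few rows.

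Several genes broke this pattern, and only some of them are named here, chosen after their values were seen. Medtr1g048470 was nearly absent from both mutants. It had 3, 1 and 1 counts in nsp2 and 413, 384 and 475 in A17 at +P+N, and summed to 2 counts in nsp1. Medtr7g028553 and its neighbour in number, Medtr7g028557, were present in both mutants. Medtr7g028553 had 146, 135 and 143 counts in nsp2 and none in A17, and 359 in sum in nsp1. Medtr7g028557 had 156, 164 and 138 counts in nsp2 and none in A17, and 375 in sum in nsp1.

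Medtr2g043030 and Medtr2g043050 were nearly absent from nsp2 at full nutrition and present in its starved roots. Medtr2g043030 had 0, 2 and 2 counts in nsp2 at +P+N, against 45, 25 and 52 in A17, or -4.95 on the log2 scale (standard error, SE, 0.55, edgeR adjusted p = 3.0e-04). In the nsp2 libraries without nitrate it had 143, 168 and 217 counts, against 178, 294 and 327 in A17. Without phosphate it had 82, 137 and 187 counts in nsp2, against 34, 42 and 70 in A17, and was there higher in nsp2 by 1.30 on the log2 scale (adjusted p = 0.013, edgeR). The change between regimes was itself past the threshold, at 4.39 for +P-N (adjusted p = 0.0038, edgeR interaction) and 6.25 for -P+N (adjusted p = 9.1e-05), and not for -P-N (3.59, adjusted p = 0.075). Medtr2g043050 had 2, 3 and 3 counts in nsp2 at +P+N, against 35, 18 and 39 in A17, and went the same way. Both genes were singled out by their counts at +P+N and in starved roots, so that these p-values are not independent of the choice. The pair had similar counts in all groups, and how reads that match several genes were counted is not stated, so that their values are uncertain as separate genes.

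Of the carotenoid and strigolactone pathway, 8 genes carry names in the study, which picked them on libraries of this series as induced by starvation in A17, dependent on NSP1 or NSP2 under nutrient depletion, and activated by miRR-NSP2 overexpression. The difference between nsp2 and A17 at +P+N is not named among these criteria. A17 at +P+N was the baseline of the starvation criterion, however, so that the values at +P+N are not independent of the choice. All 8 had log2 fold changes below 0 at full nutrition, and 3 of them were lower at an adjusted p under 0.05, where 2.61% of all genes were. D27 (Medtr1g471050) encodes the carotene isomerase that opens strigolactone synthesis. It had 0, 1 and 0 counts in nsp2, against 10, 6 and 4 in A17. Those counts, 1 against 20 in sum, gave a ratio of 22.3 with a 95% counting interval of 3.57 to 924. On the log2 scale the difference was -4.03 (SE 0.97, edgeR adjusted p = 0.041), and the call was lost with any 1 of the 6 libraries left out, with adjusted p between 0.052 and 0.17.

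CYP722C (Medtr8g076940), a cytochrome P450 known from tomato and cowpea to form the strigolactone orobanchol, had 21, 21 and 17 counts in nsp2, against 39, 31 and 38 in A17. Its level was 1.02 ± 0.0429 CPM in nsp2 and 2.07 ± 0.26 CPM in A17 (SD, n = 3 libraries each). No nsp2 library reached an A17 library. The log2 fold change was -1.03 (SE 0.24, edgeR adjusted p = 0.036), and 5 of the 6 fits with a library left out had an adjusted p above 0.05. CRTISO (Medtr1g054965), the carotenoid isomerase that acts before lycopene, was the most abundant of the 3 called genes. It stood at 17.1 ± 0.7 CPM in nsp2 and 23.4 ± 2.1 CPM in A17 (SD, n = 3 each), without overlap. Its log2 fold change was -0.47 (SE 0.09, edgeR adjusted p = 0.011), and the call was lost without A17 replicate 1, A17 replicate 3 or nsp2 replicate 1.

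The other 5 genes did not pass the test. ZAS (Medtr3g110195), the zaxinone synthase known from rice, had 25, 21 and 18 counts in nsp2, against 34, 24 and 35 in A17, a log2 fold change of -0.69 (SE 0.26). LUT5 (Medtr7g079440), a carotene hydroxylase known from Arabidopsis, was abundant in both, with 30.1 ± 1.12 CPM in nsp2 and 33.3 ± 1.23 CPM in A17 (SD, n = 3 each), and its log2 fold change was -0.16 (SE 0.07). The remaining genes were near the limit of counting. PSY (Medtr3g083630), the phytoene synthase that commits carbon to carotenoids, had 3, 1 and 1 counts in nsp2, against 2, 4 and 2 in A17. GGPPS (Medtr5g019460), which makes the geranylgeranyl diphosphate that phytoene synthase uses, had 1, 0 and 0 counts in nsp2, against 4, 2 and 2 in A17. NSY (Medtr2g086700), the neoxanthin synthase, had 3, 1 and 7 counts in nsp2, against 14, 3 and 10 in A17. With 5 counts in nsp2 and 8 in A17, PSY could differ by a ratio of A17 over nsp2 anywhere from 0.515 to 6.93, so that a difference was not detectable at this depth.

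Most of these genes were low at full nutrition in A17 itself, and their levels in A17 were higher in each starvation regime. D27 averaged 0.0159 CPM in nsp2 and 0.39 CPM in A17 at +P+N, against 0.175 in nsp2 and 1.93 in A17 at +P-N, 1.09 and 3.49 at -P+N, and 0.72 and 5.17 at -P-N. For 4 of the 8 genes the difference between nsp2 and A17 was itself larger in at least 1 starvation regime, by edgeR's interaction test. Interactions towards lower levels in nsp2 passed for 0.601% of all genes tested at +P-N, 9.1% at -P+N and 0.207% under -P-N. The log2 fold change of LUT5 was lower by 0.61 at each of the 3 starvation regimes than at +P+N (-0.61, adjusted p = 0.0018, 5.5e-04 and 0.017 in the order +P-N, -P+N, -P-N). For CRTISO the interaction was -0.67 at +P-N, -0.42 at -P+N, and -0.60 under -P-N (adjusted p = 0.0097, 0.011 and 0.028, edgeR). ZAS and CYP722C passed at +P-N, with -2.24 and -1.45. No interaction of D27, PSY, GGPPS or NSY passed the test, and their standard errors reached 2.15. The criteria used to pick these genes included starvation and mutant values, so that these interactions are not independent of the choice.

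**Figure D4:**
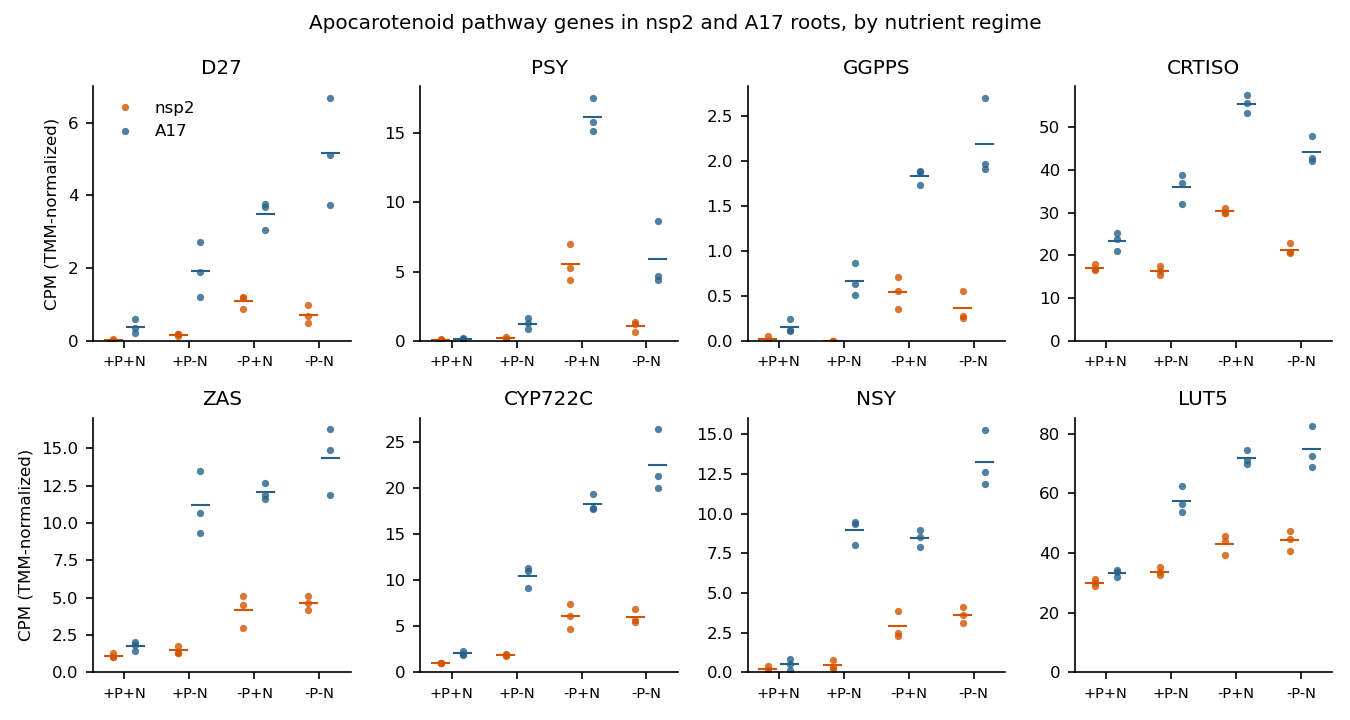
CPM (y axis, from 0) of 8 carotenoid and strigolactone pathway genes in each library of nsp2 (orange, left of each pair) and A17 (blue, right), by nutrient regime (x axis), with the mean of 3 libraries as a bar. For D27 the means at +P+N were 0.0159 CPM in nsp2 and 0.39 CPM in A17. Its gap in CPM was wider in each starvation regime, but the ratio of its means was not. CRTISO and LUT5 were abundant in both genotypes at +P+N.

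Outside the runs, and without the genes lacking in a genotype, 341 genes were higher and 475 lower in nsp2 at full nutrition. Their changes were modest, with a median log2 fold change of 0.39 among the higher genes and -0.61 among the lower ones. The higher genes were also more abundant, at a median of 42.3 CPM, against 17.1 CPM for the lower ones and 11.6 CPM for all 23409 tested genes of these parts. The nsp2 and A17 libraries of the other regimes were used to see how far the differences recurred. At +P-N, 133 of the 341 higher genes were higher (39%, against 4.64% of all tested genes outside the runs) and 3 were lower. Of the 475 lower genes, 174 were lower there (36.6%, against 5.6%) and 13 were higher. At -P-N, 78 higher genes were again higher (22.9%, against 2.09%) and 95 lower genes were again lower (20%, against 2.41%). In all 3 starvation regimes 44 of the 341 (12.9%) and 58 of the 475 (12.2%) were called in the same direction. Of all genes tested, 1.01% were higher and 1.23% lower in nsp2 in all 3 starvation regimes. In the runs, the share of the called genes that kept their direction in all 3 was between 53.5% and 62.8%.

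Without phosphate the picture was mixed for the lower genes. At -P+N, 141 of the 475 genes were lower in nsp2 (29.7%, against 14.7% of all genes outside the runs), but 136 were higher (28.6%, against 12.4%). Of the 341 higher genes, 130 were higher (38.1%) and 24 lower (7.04%). Among the 124 lower genes outside the runs that were called with each library left out, 60 were higher in nsp2 at -P+N (48.4%) and 33 lower (26.6%), with a median log2 fold change of 0.44. The regime itself stood apart, since 27.8% of all genes differed between nsp2 and A17 and 32.6% between nsp1 and A17 at -P+N, while 9.4% differed between nsp2 and nsp1.

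A set chosen without any library of full nutrition gave the reverse view. In all 3 starvation regimes 249 genes were higher in nsp2 than in A17 (1.01% of the genes tested) and 302 were lower (1.23%). At +P+N, 117 of the 249 were called higher and 156 of the 302 lower, against 1.9% and 2.61% of all genes tested. The runs held 64 of the 117 and 92 of the 156. Outside the runs, 53 of 160 and 64 of 189 were called. Of the genes called at full nutrition, 154 of 469 higher and 258 of 644 lower genes were not called in the same direction under any starvation regime.

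The response of these genes to starvation was read in nsp1, whose libraries had no part in the comparison of nsp2 with A17. Outside the runs, most genes higher in nsp2 at full nutrition were lower in starved nsp1 roots than in nsp1 roots at +P+N. In nsp1, 220 of the 341 fell at +P-N relative to +P+N (64.5%, against 28.9% of all tested genes outside the runs), 238 at -P+N (69.8%, against 26.4%) and 233 at -P-N (68.3%, against 30.2%). Those that rose were 61, 21 and 47. Over all genes tested in nsp1, 28.8%, 26.4% and 30.1% fell and 28.7%, 26.5% and 30.7% rose in these regimes. Among the 475 genes lower in nsp2, more rose than fell at -P+N, 269 (56.6%, against 26.7%) to 61, and the balance was 184 to 150 at +P-N and 219 to 131 at -P-N. In the 124 of them called with each library left out, 75 rose and 18 fell at -P+N, but 31 rose and 42 fell at +P-N, and 40 rose and 39 fell under -P-N. Median log2 fold changes in nsp1 were -0.56, -0.55 and -0.72 in the same order for the higher genes and 0.10, 0.39 and 0.26 for the lower ones, and between 0.01 and 0.02 for all genes outside the runs. The genes differ in abundance from the rest, as given above, and its part in these shares was not tested.

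The hairy roots that overexpressed NSP2 or NSP1 were each compared with the same 3 EV libraries. Over all genes tested, 14.2% were higher and 11.5% lower in NSP2ox than in EV, 15.9% and 14.7% in miRR-NSP2ox, and 6.59% and 5.16% in NSP1ox. Of the genes lower in nsp2 seedling roots, 455 were tested in hairy roots. In NSP2ox 206 of them were higher than in EV (45.3%, against 14.1% of all tested genes outside the runs) and 71 were lower (15.6%, against 11.5%). In miRR-NSP2ox 233 were higher (51.2%, against 16%) and 63 lower (13.8%, against 14.9%). In NSP1ox 162 were higher (35.6%, against 6.62%) and 33 lower (7.25%, against 5.06%). The median log2 fold change of this list was 0.34 in NSP2ox, 0.44 in miRR-NSP2ox and 0.24 in NSP1ox, and 0 for all genes. In the 124 lower genes that kept their call with each library left out, of which 123 were tested, 86 were higher in NSP2ox and 9 lower, 93 were higher in miRR-NSP2ox and 4 lower, and 78 were higher in NSP1ox and 3 lower. The genes higher in nsp2 did not mirror this. In NSP2ox 89 of 316 were higher as well (28.2%) and 41 lower (13%), in miRR-NSP2ox 104 were higher (32.9%) and 48 lower (15.2%), and in NSP1ox 49 were higher (15.5%) and 32 lower (10.1%). In the chromosome 6 run, 26.8% of the genes differed between NSP2ox and EV, against 25.6% elsewhere and 25.7% of all genes tested.

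**Figure D5:**
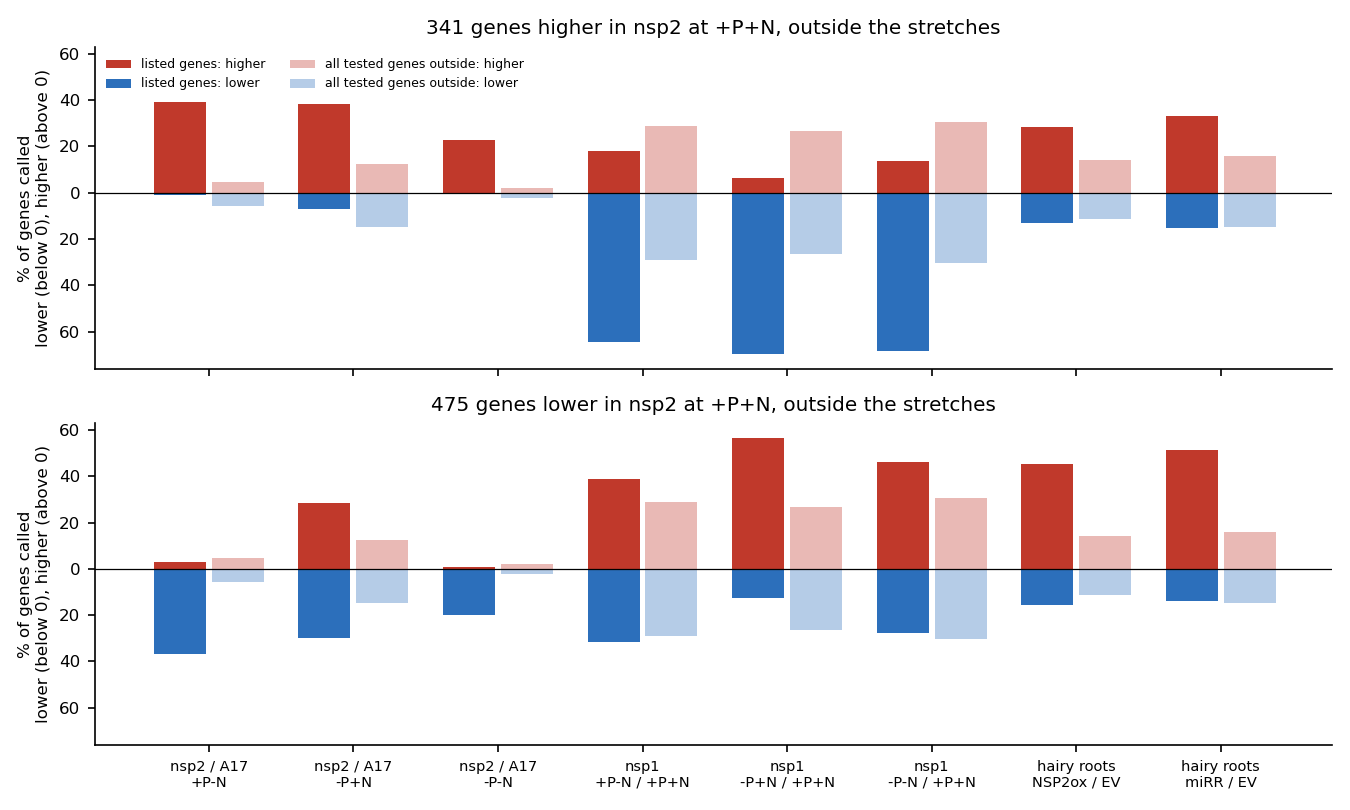
Share of the 341 genes higher (top) and 475 genes lower (bottom) in nsp2 at +P+N, outside the runs, that were called higher (red, above 0) or lower (blue, below 0) in 8 comparisons of other libraries (x axis), beside the same shares of all tested genes outside the runs (pale bars). In NSP2ox hairy roots 45.3% of the genes lower in nsp2 were higher, against 14.1% of all genes.

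The mutants also differed from each other at full nutrition. Directly compared, nsp2 and nsp1 differed in 3124 genes (12.7%), with 1350 higher (5.48%) and 1774 lower (7.2%) in nsp2. This count was 2049 without nsp2 replicate 1, 1655 without nsp1 replicate 1 and 1393 without nsp1 replicate 3. With all libraries each mutant had fewer differences from A17, 1113 in nsp2 and 1564 in nsp1 (6.35%), both set against the same A17 libraries. Single libraries moved the counts of nsp2 against A17 too, up to 1641 without A17 replicate 2. That is more than the 1393 between the mutants without nsp1 replicate 3, but these fits left out different libraries. Where both fits left out nsp2 replicate 1, 2 or 3, the mutants differed in 2049, 2929 and 2766 genes. In the same order nsp2 differed from A17 in 559, 1150 and 938. None of the 8 carotenoid and strigolactone genes passed this test, which does not show that they were equal. The log2 fold change of nsp2 over nsp1 was -0.10 for CYP722C (SE 0.34), 0.07 for CRTISO (SE 0.09), -0.05 for ZAS (SE 0.28) and 0.02 for LUT5 (SE 0.06), and that of D27 was -1.38 with a standard error of 1.49.

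The difference between nsp2 and A17 depended on the nutrient supply for a part of all genes. By the interaction test it was another one at -P+N than at +P+N for 3800 genes (15.4%), at +P-N for 503 (2.04%) and at -P-N for 173 (0.702%). At +P-N 355 of these (1.44% of the genes tested) moved towards higher and 148 (0.601%) towards lower levels in nsp2 relative to A17, and at -P-N 122 (0.495%) and 51 (0.207%) did. At -P+N more moved towards lower levels, 2241 (9.1%), than towards higher ones, 1559 (6.33%). The part of the 3 A17 libraries at -P+N in these counts was not tested. Without nsp2 replicate 1, A17 replicate 1 or A17 replicate 3 of the +P+N libraries, the count at +P-N was 331, 333 and 310, and that at -P-N was 60, 59 and 74. Of the genes called at +P+N, 7 higher and 27 lower ones had an interaction against their direction in all 3 regimes. Over all genes tested, 13 (0.0528%) had an interaction towards lower levels in nsp2 in all 3 regimes and 45 (0.183%) one towards higher levels. The +P+N libraries that gave the calls enter these interactions too, so that these counts are not independent of the calls.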

How the data were processed

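Per the labels and the methods of the study, polyadenylated RNA was sequenced in read pairs at more than 1 sequencing provider, and which library went where is not given in the sources used here. The authors mapped the reads with STAR to the M. truncatula genome Mt4.0v1, took featureCounts to assign reads to genes, and the deposited values are whole-number counts without normalization. The tool versions and the treatment of strand and of reads with several matches are not given in the sources used here. Genes were tested where at least 3 of the 36 seedling libraries reached 0.492 CPM, the value of 10 counts in the median library, which kept 24630 of 50894 genes. The same filter within the hairy-root libraries kept 24004 genes. A pairwise fit used only the 6 libraries compared, in edgeR 4.0.16 in R 4.3.3, with TMM normalization, the quasi-likelihood test and Benjamini-Hochberg adjustment over all genes tested at a threshold of 0.05. Interactions were fitted on 12 libraries. The main comparison took no covariate. CPM values of named genes are TMM-normalized over the 36 seedling libraries, and median CPM values of gene groups over the 6 libraries compared. The minimum of 1 CPM for genes lacking in one genotype, and their picture, used CPM without TMM. A standard error is the size of the log2 fold change divided by the square root of F. Counting intervals (95%, exact binomial) and bounds against 3 counts cover counting error only.

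The members and lists were chosen with earlier results of these data known. Genes were named where the study names them, and otherwise as the 2 in each direction with the largest change among those past the threshold, at 2 CPM or more, without overlap and called with each library left out. Other identifiers are printed where a group of 5 or fewer genes, or the end of a run, is singled out, chosen after their values were seen. No product descriptions matched the identifiers, so that NSP2, NSP1, gene families, tissue markers and promoters were not analysed here, and the labelled tissue was not checked against markers. Barley was not used here. Alternatives were RLE size factors, DESeq2 1.42.0, other filters, all 36 libraries in one fit, the replicate number as a block, a fold threshold of 1.5 and leaving out each library.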

Additional observations from a re-analysis of the deposited data

Results flagged for a closer look

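For 6 named genes the difference between nsp2 and A17 was not the same at full nutrition as in a starvation regime, by edgeR's interaction test over 12 libraries with Benjamini-Hochberg adjustment over all genes. The values are the log2 fold change of nsp2 over A17 in the starvation regime minus that at +P+N. For LUT5 it was -0.61 in each of the 3 starvation regimes. For CRTISO it was -0.67 at +P-N, -0.42 at -P+N, and -0.60 under -P-N. For ZAS it was -2.24 at +P-N, and for CYP722C it was -1.45 at +P-N. In the other direction, Medtr2g043030 gave 4.39 at +P-N and 6.25 at -P+N, and Medtr2g043050 gave 3.23 at +P-N (adjusted p = 0.022, edgeR) and 4.70 at -P+N (adjusted p = 6.1e-04, edgeR). The same +P+N libraries enter each of these values, and Medtr2g043030 and Medtr2g043050 were singled out by their counts in the libraries tested.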

How the results depend on the processing

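With RLE size factors, DESeq2 or either milder change of the filter, the counts at full nutrition stayed within 1.5 times the main ones (469 higher and 644 lower), between 432 and 511 higher and between 618 and 696 lower. Without a filter they were 725 and 1031, with all 36 libraries in one fit 1059 and 1014, with a fold change over 1.5 194 and 393, and without the genes of the chromosome 6 and 7 runs, a choice made after seeing the data, 263 and 396. Leaving out single libraries gave 166 to 688 higher and 264 to 953 lower genes. For nsp2 against nsp1 it gave 1393 to 2929 genes, and for the interactions 310 to 478 at +P-N, 2870 to 3577 at -P+N and 59 to 164 under -P-N. DESeq2 called 419 interactions at -P-N, against 173. The causes were not tested. D27 lost its call in DESeq2 (adjusted p = 0.059) and without the runs (0.053), and CYP722C lost it in DESeq2 (0.09). The log2 fold changes of the 8 pathway genes and the 4 genes of largest change kept their sign under each alternative run. The other named genes were not refitted.

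Replicate numbers are shared by the groups, and the labels do not say whether they pair the samples. The deviations of same-numbered nsp2 and A17 libraries from their group means had correlations of 0.062, -0.077 and -0.256. With 3 libraries per group, such correlations cannot decide whether the numbers mark a shared planting. With the replicate number as a block, 282 genes were higher and 502 lower, 2359 differed between nsp2 and nsp1, and the interactions numbered 579 at +P-N, 3680 at -P+N and 188 under -P-N. In this fit D27 (adjusted p = 0.07, edgeR) and CYP722C (0.087) were not called. No nsp2 library correlated best with the A17 library of its number.

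Depth limits the genes of the carotenoid and strigolactone pathway, of which D27, PSY, GGPPS and NSY had at most 14 counts in any nsp2 or A17 library at +P+N.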
